A study of Mus musculus with 6 samples.

Results

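Immediate early genes are transcribed within minutes of a stimulus, before any new protein has to be made, by transcription factors that already sit in the cell, among them serum response factor (SRF) with its ETS-domain partners, and CREB. Most of them encode transcription factors themselves, which pass the signal on to a later set of genes, and their mRNAs are short-lived. In the heart they are classical early markers of stretch, pressure load and injury. The 10 genes described here were listed by name; no measured value entered the rule, but earlier results of these data were known when the list was made. They are Fos, Fosb, Jun and Junb, whose proteins pair to form the transcription factor AP-1; Atf3, a stress-responsive relative of these; the zinc finger genes Egr1, Egr2 and Egr3; Klf6, a Kruppel-like zinc finger gene; and Ier2, which encodes a small nuclear protein. They are 10 of 54356 genes for which transcript counts could be summed, and all 10 were among the 16048 genes that passed the filter for low counts and were tested.

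Hearts of Flnc gKO embryos and of littermate control embryos were taken at E9.5 for RNA sequencing, with 3 libraries in each group, all of strain C57BL/6. In Flnc gKO embryos a floxed stretch of Flnc, the gene of the actin-binding protein filamin C, is removed by Sox2-Cre, which acts in the whole embryo proper, so that non-muscle cells of the heart carry the deletion as well. The labels call the other group littermate control without saying whether these embryos carried Cre or a floxed or deleted allele. The labels name the whole heart as tissue, the study's methods name embryonic hearts or isolated ventricles, and the number of hearts per library is not stated in either, so that p-values measure the spread between these libraries only, part of which may be technical. The comparison of Flnc gKO with control asks which genes respond to loss of filamin C at a stage when the mutant myocardium ruptures.

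Libraries held 19208859 to 23123255 estimated counts. Mitochondrial genes took 2.33%, 2.01% and 2.58% of the counts in Flnc gKO libraries 1, 2 and 3, against 3.31%, 3.96% and 3.08% in control libraries. Flnc was at 127, 111 and 240.0 CPM (a gene's part of the counts of its library, after TMM scaling for RNA composition) in Flnc gKO libraries and at 623 to 844 CPM in control libraries. All 12 cardiomyocyte markers examined were detected, at a summed 35185 to 41009 CPM in Flnc gKO and 38523 to 43708 CPM in control libraries. The 12 platelet and megakaryocyte markers, none of them at 0, summed to 1179, 732 and 229.9 CPM in the Flnc gKO libraries numbered 1, 2 and 3, against 72.8 to 109 CPM in control libraries. The 12 erythroid markers summed to 7602 to 12582 CPM in Flnc gKO and 3112 to 9074 CPM in control libraries, with replicate 3 the highest in both groups. The 12 endothelial and endocardial markers, none of them at 0, summed to 1311 to 1606 CPM in Flnc gKO and 1141 to 1346 CPM in control libraries, and the 12 macrophage and leukocyte markers, also none at 0, to 25.8 to 46.3 CPM and 13.3 to 27.9 CPM. The part of these cells, and of mitochondrial RNA, in the results below was not tested. The 4 Y-linked genes examined summed to 80.8, 3.88 and 4.28 CPM in the same Flnc gKO libraries, against 117 to 139.7 CPM in control libraries, so Y-linked RNA is not balanced between the groups; the labels do not give the sex of the embryos. Flnc gKO replicate 3 thus stands apart from the other mutant libraries in its low platelet sum and in its Flnc level, the highest of the mutant ones, and calls that change without it are given below.

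Across the 10 genes, 7 were higher in every Flnc gKO library than in any control library (Fosb, Junb, Atf3, Egr1, Egr2, Egr3 and Klf6), and 0 were lower in every one. Of all genes tested, 15.7% lay above the controls in this way and 14.1% below. By the quasi-likelihood test of edgeR, with p-values adjusted by Benjamini-Hochberg over all 16048 genes, 1 of the 10 (Klf6) passed the threshold of 0.05 as higher, where 1.06% of all genes did, and 0 passed as lower, where 0.249% did; at an unadjusted p under 0.05 the counts were 7 higher and 1 lower, where 13.3% and 8.84% of all genes were. DESeq2, the tool the study used, called 6 higher and 0 lower on the same counts, where it called 6.19% and 2.26% of all genes. Flnc itself, with a log2 fold change of -2.21, had an adjusted p of 0.0655 by edgeR and 9.99e-07 by DESeq2. Of the 12 platelet and megakaryocyte markers, edgeR called 0 and DESeq2 called 12 higher. A gene that edgeR did not call is thus not shown to be unchanged. Without Flnc gKO replicate 3, edgeR called 6 of the 10 higher and 0 lower, where it called 6.05% and 1.74% of all genes. Replicate 3 was the lowest mutant library in 8 of the 10 genes, as in 34.9% of all genes. Leaving it out raises the fold changes of these genes by arithmetic. With a covariate for Y-linked RNA, edgeR called 0 of all genes, and 8 of the 10 had an unadjusted p under 0.05, as 8.01% of all genes did. The median log2 fold change of the 10 genes was 1.125 on the CPM scale, that of all genes tested 0.0087. Because the tissue was sequenced in bulk, more cells that express a gene and more RNA of it per cell cannot be told apart.

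**Figure D1:**
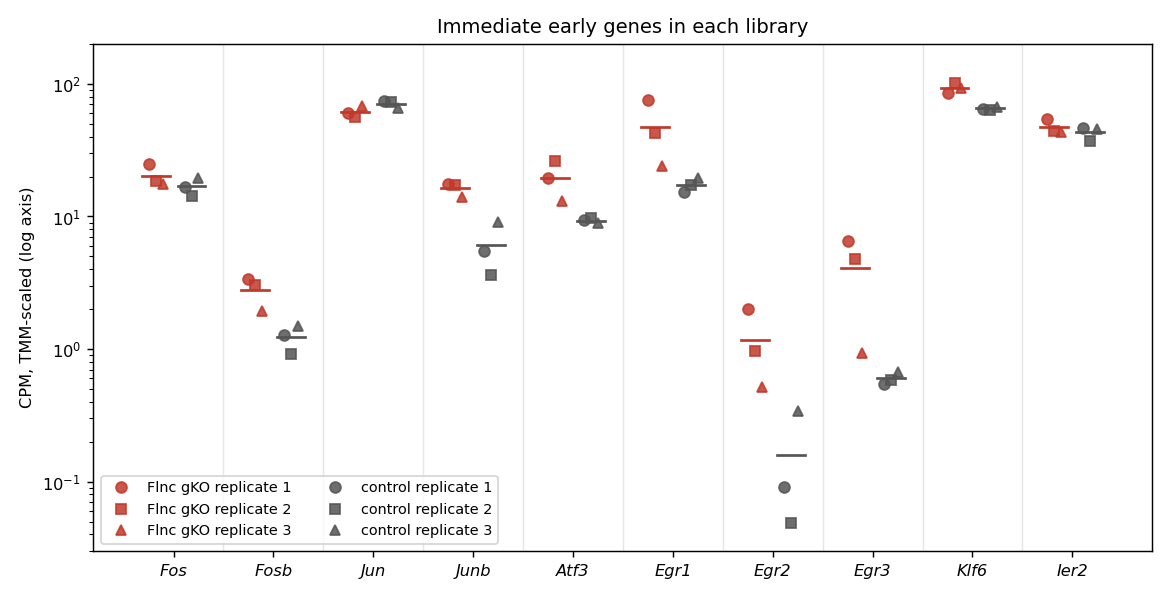
CPM (TMM-scaled, log axis) of the 10 immediate early genes in each library, with Flnc gKO libraries in red left of control libraries in grey, 1 symbol per replicate number and a line at the mean of each group of 3. The red points of Fosb, Junb, Atf3, Egr1, Egr2, Egr3 and Klf6 all lie above the grey ones, while those of Fos, Jun and Ier2 are mixed with them.

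Fos and Fosb encode Fos family subunits, which bind DNA only as partners of a Jun protein. Fos (ENSMUSG00000021250, chr12:85473890-85477273, plus strand; all gene coordinates are from GENCODE on GRCm38) is the prototype of an SRF and CREB target. It had 24.7, 18.7 and 17.6 CPM in Flnc gKO libraries, against 16.7, 14.3 and 19.5 CPM in control libraries (here and below in the order of replicates 1, 2 and 3). The groups overlapped, since control replicate 3 lay above Flnc gKO replicates 2 and 3. The log2 fold change was 0.27 (standard error 0.16), with an adjusted p of 0.371 by edgeR.

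Fosb (ENSMUSG00000003545, chr7:19302696-19310051, minus strand) is less abundant and is known for a truncated splice form, delta FosB, which is stable and accumulates under repeated stimulation. Its level was 3.40, 3.04 and 1.93 CPM in Flnc gKO libraries, against 1.28, 0.917 and 1.498 CPM in control libraries. Every Flnc gKO library was above every control library, with Flnc gKO replicate 3 the closest to them. The log2 fold change of 1.18 (standard error 0.30) had an adjusted p of 0.0850 by edgeR and 0.0502 by DESeq2, and without Flnc gKO replicate 3 it was 1.38 with an adjusted p of 0.0233 by edgeR. With any other library left out, edgeR gave an adjusted p of 0.125 to 0.278. Reads of Fosb were too few to follow its splice forms. From library to library within each group, the estimated counts moved between Fosb-201, which codes for 338 residues, and Fosb-205, which codes for 299. Neither of these was matched to delta FosB. The shorter Fosb-206, which codes for 237 residues, was assigned 0 counts in all 6 libraries.

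Jun and Junb encode Jun family subunits, which can pair with each other or with Fos proteins; Jun is the stronger activator, and Junb often restrains it. Jun (ENSMUSG00000052684, chr4:95049034-95052222, minus strand) has a single exon. Counts gave it 59.8, 56.5 and 68.4 CPM in Flnc gKO libraries, against 73.8, 73.5 and 65.8 CPM in control libraries. Flnc gKO replicates 1 and 2 were below all controls and replicate 3 was not. It was the only one of the 10 genes with a negative log2 fold change, -0.21 (standard error 0.085, adjusted p = 0.207 by edgeR, 0.199 by DESeq2). DESeq2 without Flnc gKO replicate 3 called it lower.

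Junb (ENSMUSG00000052837, chr8:84974484-84978718, minus strand) also has a single exon in its main transcript. It had 17.4, 17.3 and 14.03 CPM in Flnc gKO libraries, against 5.53, 3.62 and 9.03 CPM in control libraries. The Flnc gKO libraries lay close together and above all controls, and most of the spread was among the controls, whose replicate 3 was the highest. Its log2 fold change of 1.42 (standard error 0.32) had an adjusted p of 0.0842 by edgeR and 1.05e-04 by DESeq2. Without control replicate 3, the highest control, the log2 fold change was 1.83 with an adjusted p of 0.0389 by edgeR. The adjusted p was 0.0883 to 0.286 when any other library was left out. Nearly all counts (99.9% in Flnc gKO and 100% in control libraries) were assigned to Junb-201, which does not overlap the neighbouring gene Prdx2; the annotated overlap on the opposite strand comes from Junb-202.

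Atf3 (ENSMUSG00000026628, chr1:191170296-191218039, minus strand) encodes a bZIP factor of the ATF/CREB family, which pairs with Jun proteins, represses many of its targets and is induced by many kinds of cell stress. It was at 19.4, 26.1 and 13.1 CPM in Flnc gKO libraries, against 9.33, 9.65 and 8.94 CPM in control libraries. The controls differed little among themselves, with a coefficient of variation of 3.84%, while the Flnc gKO libraries varied by 33.1% and all lay above them. The log2 fold change was 1.07 (standard error 0.24), with an adjusted p of 0.0780 by edgeR and 4.50e-04 by DESeq2. With the replicate number as a block it was 1.03 with an adjusted p of 0.0355, and without Flnc gKO replicate 3 it was 1.29 with an adjusted p of 0.00196, both by edgeR. Leaving out any other library gave an adjusted p of 0.131 to 0.275 by edgeR. The block thus made 2 of the 10 genes pass, Atf3 and Klf6, where it made 3.19% of all genes pass as higher and 0.748% as lower.

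The Egr genes encode transcription factors with similar zinc fingers that bind GC-rich sites; Egr1 is a target of SRF, and the corepressors Nab1 and Nab2 bind and restrain Egr1, Egr2 and Egr3 proteins. Egr1 (ENSMUSG00000038418, on chromosome 18) had 76.1, 42.3 and 24.0 CPM in Flnc gKO libraries, against 15.2, 17.3 and 19.6 CPM in control libraries. Flnc gKO replicate 1 was at 4.39 times the mean of the controls, replicate 2 at 2.44 times and replicate 3 at 1.39 times, so the groups did not overlap but the mutant libraries spread far more (coefficient of variation 55.7%, against 12.6% in controls). The log2 fold change of 1.45 (standard error 0.46) had an adjusted p of 0.163 by edgeR and 0.0337 by DESeq2. Without Flnc gKO replicate 3 it was 1.77 with an adjusted p of 0.0469 by edgeR, and without Flnc gKO replicate 1 it was 0.93 with an adjusted p of 0.167. In the other fits with 1 library left out, the adjusted p by edgeR was 0.256 to 0.382.

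Egr3 (ENSMUSG00000033730, chr14:70077203-70082614, plus strand) acts in muscle spindles, lymphocytes and endothelial cells. It had 6.53, 4.81 and 0.939 CPM in Flnc gKO libraries, against 0.549, 0.579 and 0.676 CPM in control libraries, which are 146, 109 and 18 counts against 12, 12 and 14. Flnc gKO replicates 1 and 2 were at 10.8 and 7.995 times the mean of the controls and replicate 3 at 1.56 times, so this gene had the widest spread among mutant libraries of the 10 (70.0%). Its log2 fold change was 2.76 (standard error 0.70), with an adjusted p of 0.0984 by edgeR and 6.02e-04 by DESeq2. Without Flnc gKO replicate 3 it was 3.22 with an adjusted p of 6.54e-04 by edgeR, but any other library left out gave 0.170 to 0.3045. The coding Egr3-204 was assigned 56.5% and 64.9% of the counts in Flnc gKO replicates 1 and 2, and most of the rest went to the retained-intron form Egr3-202. All counts went to Egr3-202 in Flnc gKO replicate 3 and control replicate 1, and all to Egr3-204 in control replicates 2 and 3, so the forms could not be compared between groups.

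Egr2 (ENSMUSG00000037868, chr10:67535475-67542188, plus strand), best known from hindbrain and Schwann cells, was the least abundant of the 10. Its estimated counts were 45, 22 and 10 in Flnc gKO libraries, against 2, 1 and 7 in control libraries. The groups did not overlap, but Flnc gKO replicate 3 was only 3 counts above control replicate 3. The sums of 77 and 10 counts gave a ratio of 7.43, with an exact 95% binomial interval of 3.83 to 16.1 that covers counting error only. The fitted log2 fold change was 2.85 (standard error 0.74), with an adjusted p of 0.0934 by edgeR and 0.0247 by DESeq2, and without Flnc gKO replicate 3 it was 3.19 with an adjusted p of 0.0307 by edgeR. That p by edgeR was 0.09075 to 0.301 without any other library.

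Klf6 (ENSMUSG00000000078, chr13:5861482-5870394, plus strand), which encodes a Kruppel-like factor induced by injury in endothelial cells of the vessel wall, rose. It was at 85.8, 101.8 and 93.0 CPM in Flnc gKO libraries, against 64.9, 63.7 and 67.1 CPM in control libraries. Both groups were tight, with coefficients of variation of 8.58% in Flnc gKO and 2.68% in control libraries, and they did not overlap. The fold change of 1.43, or 0.52 on the log2 scale (standard error 0.073), was the smallest of the 7 genes whose groups did not overlap and the only one past the threshold, with an adjusted p of 0.0348 by edgeR and 9.99e-07 by DESeq2. The adjusted p by edgeR was above 0.05 when any 1 library other than Flnc gKO replicate 3 was left out, at 0.0519 to 0.197, while the log2 fold change lay between 0.45 and 0.57 in these fits. They called 1 to 99 of all genes higher, against 170 from all libraries, and the unadjusted p of Klf6 by edgeR was 1.29e-04 to 0.001075.

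Ier2 (ENSMUSG00000053560, chr8:84661331-84662852, minus strand) has a single exon and encodes a nuclear protein that regulates transcription without a known DNA-binding domain of its own. It had 54.7, 44.2 and 43.0 CPM in Flnc gKO libraries, against 46.8, 36.9 and 45.6 CPM in control libraries. Flnc gKO replicates 2 and 3 lay within the range of the controls and replicate 1 above it. The log2 fold change was 0.14 (standard error 0.12), with an adjusted p of 0.571 by edgeR and 0.725 by DESeq2.

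**Figure D2:**
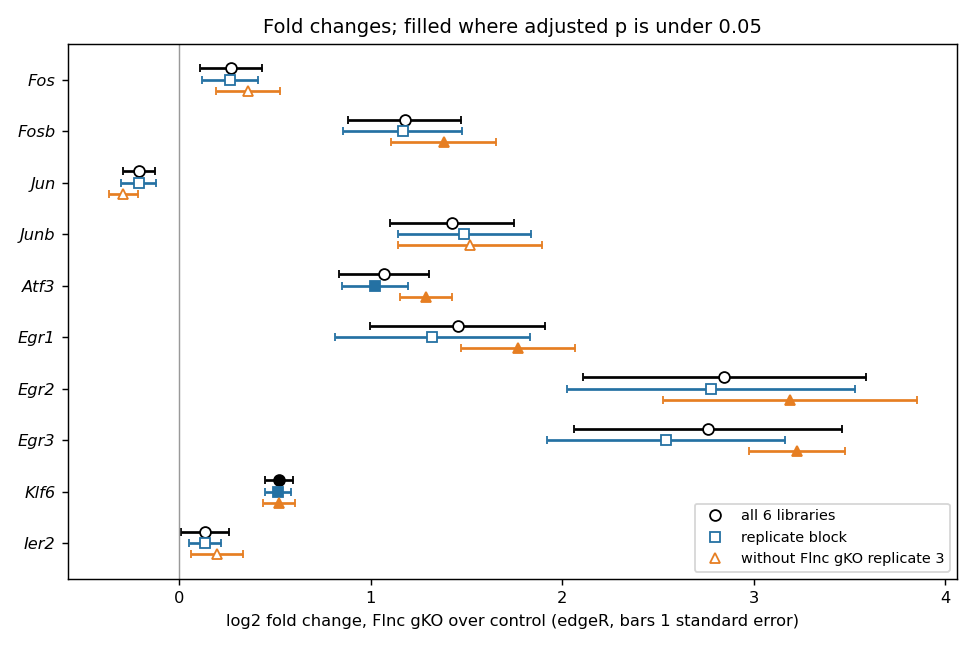
Log2 fold change, Flnc gKO over control, of the 10 genes by edgeR with 1 standard error, from all 6 libraries (circles), with the replicate number as a block (squares) and without Flnc gKO replicate 3 (triangles). Filled symbols mark an adjusted p under 0.05: Klf6 in all 3 fits, Atf3 with the block, and Fosb, Atf3, Egr1, Egr2, Egr3 and Klf6 without Flnc gKO replicate 3.

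In 8 of the 10 genes Flnc gKO replicate 3 was the lowest of the 3 mutant libraries, as it was in 34.9% of all genes tested; Jun and Klf6 were the exceptions. In 7 of them (Fos, Fosb, Junb, Egr1, Egr2, Egr3 and Ier2) replicate 1 was above replicate 2 and replicate 2 above replicate 3, as in 14.4% of all genes, and the platelet marker sums of 1179, 732 and 229.9 CPM had the same order. Atf3, Klf6 and Jun did not have it. In the 7 genes with this order replicate 1 was the highest mutant library, so leaving it out lowers their fold changes by arithmetic. Leaving out replicate 3, their lowest mutant library, raises them in the same way. Without Flnc gKO replicate 1, the log2 fold changes of Klf6, Junb and Atf3 were 0.57, 1.36 and 1.07, against 0.52, 1.42 and 1.07 from all libraries. Those of Fosb, Egr1, Egr2 and Egr3 were 1.01, 0.93, 2.20 and 2.25, against 1.18, 1.45, 2.85 and 2.76 from all libraries, and those of Fos and Ier2 were 0.098 and 0.011, against 0.27 and 0.14. The part of platelets in any of these differences was not tested. The 5 genes whose log2 CPM ran most like the mean of the 10 over the 6 libraries were Tuba4a, an alpha tubulin gene (Pearson r 0.999), Slc14a1, a urea transporter gene (0.997), Gp1bb, which encodes a chain of the platelet von Willebrand factor receptor (0.996), Laptm5, a lysosomal membrane protein gene of blood cells (0.996), and Fermt3, which encodes kindlin-3 of blood cells (0.995). These are the highest of 14325 genes with a mean of at least 1 CPM, of which 251 had an r above 0.95. The centred mean of the 10 was 0.87, 0.61 and 0.039 in Flnc gKO libraries, against -0.54, -0.71 and -0.27 in control libraries. The values of r thus take in both the group difference and the order of libraries within the groups. Genes with larger changes weigh more in this mean. In log2(CPM + 0.1), Egr2, Egr3 and Egr1 lay 3.19, 3.24 and 2.135 above the control mean in Flnc gKO replicate 1. The other members ran from -0.25 (Jun) to 1.605 (Junb) in that library.

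Levels of different genes were compared as TPM, the deposited values per transcript length, summed per gene. In Flnc gKO libraries Ier2 was the highest at 58.4 ± 8.19 TPM (SD, n = 3), and Klf6 at 43.6 ± 3.73 TPM was second and stood above Jun at 34.2 ± 2.62 TPM in all 3 libraries. Jun, Egr1, Fos, Junb and Atf3 overlapped from neighbour to neighbour, and the last 4 of them had means of 26.9, 17.8, 16.3 and 15.9 TPM. Egr3, Fosb and Egr2 were the lowest, at means of 2.11, 1.17 and 0.790 TPM, and overlapped as well. In control libraries Ier2 was also the highest, at 54.75 ± 6.00 TPM (SD, n = 3), but Jun at 40.2 ± 2.60 TPM stood above Klf6 at 30.65 ± 0.84 TPM. Below them the control order was Fos, Egr1, Atf3, Junb, Fosb, Egr3 and Egr2, at means of 15.6, 10.01, 7.47, 6.32, 0.522, 0.297 and 0.193 TPM, in which only Atf3 and Junb, and Egr3 and Egr2, overlapped with their neighbour. The TPM of Egr2 in Flnc gKO replicate 3, 0.715, was above that of replicate 2, 0.549, although its CPM was lower, because part of its 10 counts was assigned to a shorter transcript.

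Shares within the families were taken from the same TPM. Jund, a Jun family gene that is expressed constitutively in most cells, held 74.0 ± 0.94% of the Jun family TPM in Flnc gKO libraries and 74.05 ± 1.203% in control libraries (SD, n = 3 each). Junb held 8.99%, 8.93% and 7.21% in Flnc gKO libraries, against 2.90%, 2.22% and 5.50% in control libraries. Jun held 17.3%, 16.0% and 19.5% in Flnc gKO libraries, against 21.7%, 24.1% and 21.45% in control libraries. The groups thus did not overlap for the share of Junb, which was higher in Flnc gKO, nor for that of Jun, which was lower, while the whole family summed to 190.3 to 201 TPM in Flnc gKO and 173.5 to 190.4 TPM in control libraries. In the Fos family, Fosl2, whose protein lacks the strong activation domain of Fos, held 30.6%, 45.2% and 29.6% in Flnc gKO libraries, against 18.8%, 20.7% and 19.5% in control libraries. The share of Fosl1 was highest in replicate 3 of both groups, at 24.9% in Flnc gKO replicate 3 and 27.3% in control replicate 3, against 0.480% to 7.64% in the other libraries. In the Egr family, Egr1 held 88.8% to 89.7% in Flnc gKO libraries, against 93.1% to 96.1% in control libraries. Egr3 held 7.05%, 8.96% and 3.13% in Flnc gKO libraries, against 2.99%, 2.685% and 2.80% in control libraries. A two-sided exact permutation test cannot go below 0.1 with 3 libraries against 3. By this test p was 0.1 for the shares of Jun, Junb, Fosl2, Egr1 and Egr3, 0.9 for Jund and 1 for Fosl1. After Benjamini-Hochberg adjustment over the 11 shares of the 3 families, none was under 0.22.

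**Figure D3:**
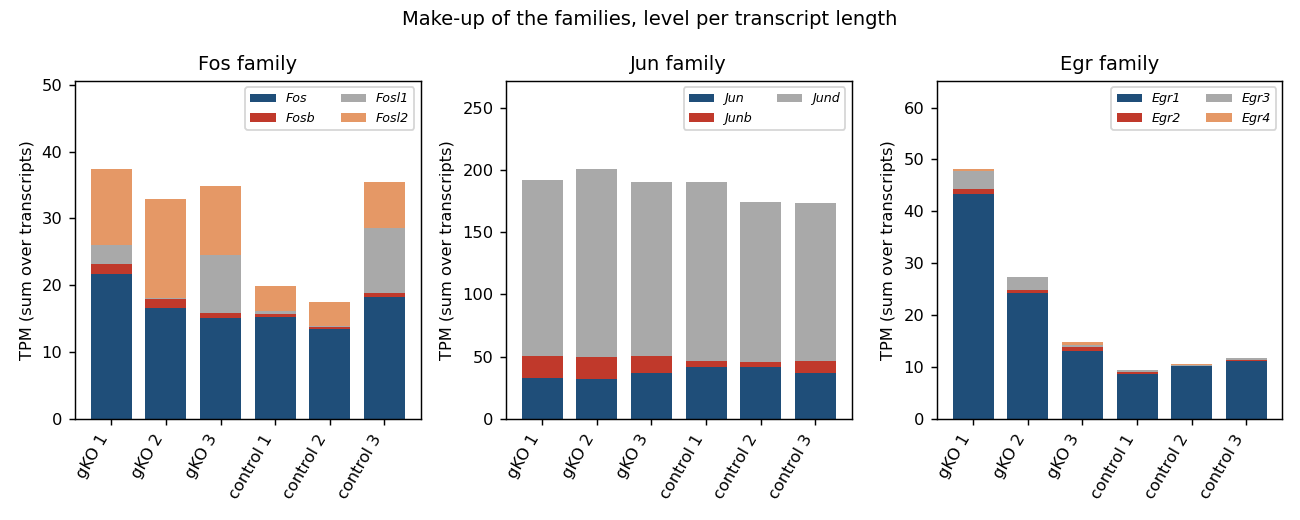
TPM summed over transcripts for each gene of the Fos, Jun and Egr families, stacked by library, with Flnc gKO libraries left of control libraries and an axis for each family. In Flnc gKO libraries Junb holds 7.21% to 8.99% of the Jun family, against 2.22% to 5.50% in control libraries; Fosl1 is visible mainly in replicate 3 of both groups; and the Egr family sums to 48.2, 27.4 and 14.8 TPM in Flnc gKO libraries, against 9.35 to 11.7 TPM in control libraries.

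Promoter sequence was available in the RefSeq promoter table (GRCm38.p6) for 7 of the 10 genes and is shown because 5 of these 7 genes were higher in every mutant library (Fosb, Junb, Atf3, Egr2 and Klf6) and the others were not (Fos and Jun). Egr1, Egr3 and Ier2 are not shown. Each line gives the 130 bases before the RefSeq start, in the sense of the gene, and capitals mark matches to the motifs named in the next paragraph.
Fosb: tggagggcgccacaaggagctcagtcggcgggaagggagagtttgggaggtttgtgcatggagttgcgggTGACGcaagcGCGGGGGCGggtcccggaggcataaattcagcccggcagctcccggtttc
Junb: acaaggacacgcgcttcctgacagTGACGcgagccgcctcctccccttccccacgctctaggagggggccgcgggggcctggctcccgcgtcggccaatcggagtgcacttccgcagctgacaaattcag
Atf3: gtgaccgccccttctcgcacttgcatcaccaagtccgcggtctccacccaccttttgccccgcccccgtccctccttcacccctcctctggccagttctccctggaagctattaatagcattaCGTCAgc
Egr2: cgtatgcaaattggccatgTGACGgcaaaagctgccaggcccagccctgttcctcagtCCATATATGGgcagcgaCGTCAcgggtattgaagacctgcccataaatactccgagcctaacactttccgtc
Klf6: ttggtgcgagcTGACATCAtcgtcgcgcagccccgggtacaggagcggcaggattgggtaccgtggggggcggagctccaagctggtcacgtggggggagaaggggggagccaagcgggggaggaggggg
Fos: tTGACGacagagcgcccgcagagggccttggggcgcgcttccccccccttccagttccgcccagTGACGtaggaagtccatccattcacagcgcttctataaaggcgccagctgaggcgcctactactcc
Jun: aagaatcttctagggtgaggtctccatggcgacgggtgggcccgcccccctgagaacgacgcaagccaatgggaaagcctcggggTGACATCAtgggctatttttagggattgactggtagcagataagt

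These windows lie at chr7:19310046-19310175 (Fosb, minus strand), chr8:84978749-84978878 (Junb, minus), chr1:191183334-191183463 (Atf3, minus), chr10:67537739-67537868 (Egr2, plus), chr13:5861359-5861488 (Klf6, plus), chr12:85473760-85473889 (Fos, plus) and chr4:95052223-95052352 (Jun, minus). The whole windows of the table (300 bases, from 250 before to 50 after the start) were searched on both strands, every match in these 7 lay in the stretch shown, and positions count back from -1, the last base before the start. The half-site of CREB and ATF proteins, TGACG, was in 5 of the 7 windows (Fosb at -60 to -56, Junb at -106 to -102, Atf3 at -7 to -3, Egr2 at -111 to -107 and -55 to -51, Fos at -129 to -125 and -66 to -62) and in 20.8% of the 32851 windows of the table. It is part of the full cAMP response element TGACGTCA, which was in 0 of the 7 and in 1.79% of all windows. A CArG box, the binding sequence of SRF, was in Egr2 at -72 to -63 and in 1.63% of all windows. Sequence beyond 250 bases before the start was not searched, nor were Egr1, Egr3 and Ier2. A gene without a match here, Fos included, may thus still have such a site. The Egr site GCGNGGGCG was in Fosb at -50 to -42 and in 5.55% of all windows. The AP-1 site TGANTCA and the ETS core CCGGAAGT were in 0 of the 7, and in 7.81% and 3.89% of all windows. TGACATCA, a sequence chosen after the windows were seen, was in Jun at -45 to -38 and Klf6 at -119 to -112, and in 3.62% of all windows. The half-site thus stood both in genes whose groups did not overlap and in Fos, whose groups did, and a match is a sequence feature only.

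Genes that work with these 10 were examined as lists. Their counts stand against the shares of all genes given above: 1.06% higher and 0.249% lower by edgeR, 6.19% and 2.26% by DESeq2, and 13.3% and 8.84% at an unadjusted p under 0.05. Calls lost below when a library other than Flnc gKO replicate 3 was left out stand against all genes too. In those fits edgeR called 1 to 99 of all genes higher, against 170 from all libraries. Of 12 other AP-1 partner genes 11 were tested, of which edgeR called 1 higher and 0 lower (7 and 0 at an unadjusted p under 0.05) and DESeq2 5 higher and 0 lower, with a median log2 fold change of 0.28 against 0.0087 for all genes. The called gene was Mafk, which encodes a small Maf protein that pairs with other bZIP proteins. It had 36.5, 33.75 and 29.8 CPM in Flnc gKO libraries, against 22.9, 22.5 and 24.4 CPM in control libraries (log2 fold change 0.52, standard error 0.089, adjusted p = 0.0440 by edgeR). This adjusted p was 0.0792 with transcript-length offsets, and 0.0734 to 0.216 when any 1 library other than Flnc gKO replicate 3 was left out. Fosl2 was at 44.1, 54.6 and 40.5 CPM in Flnc gKO libraries, against 14.1, 13.3 and 26.6 CPM in control libraries, with an adjusted p of 0.0906 by edgeR and 3.13e-06 by DESeq2. By edgeR the adjusted p was 0.0204 without control replicate 3 and 0.123 to 0.2775 without any other library. Jund, at 82.5 to 85.9 CPM in Flnc gKO and 61.9 to 84.1 CPM in control libraries, overlapped between groups.

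Of 16 other early response transcription factor genes 15 were tested, of which edgeR called 1 higher and 0 lower (7 and 1 at an unadjusted p under 0.05) and DESeq2 6 higher and 1 lower, with a median log2 fold change of 0.30. The called gene was Npas4, known from neurons as an activity-dependent bHLH-PAS factor. It was at 37.8, 41.2 and 26.4 CPM in Flnc gKO libraries, against 14.1, 14.6 and 14.9 CPM in control libraries (log2 fold change 1.27, standard error 0.16, adjusted p = 0.0324 by edgeR). When any 1 library other than Flnc gKO replicate 3 was left out, it was 0.0647 to 0.197. Nr4a1, which encodes an orphan nuclear receptor, had 49.2, 48.9 and 23.5 CPM in Flnc gKO libraries, against 16.4, 17.5 and 19.1 CPM in control libraries, with an adjusted p of 0.104 by edgeR and 8.53e-05 by DESeq2. Here too Flnc gKO replicate 3 was the closest to the controls, and without it the log2 fold change was 1.475, against 1.201 from all libraries, with an adjusted p of 1.36e-04 by edgeR. Any other library left out gave an adjusted p of 0.189 to 0.3025 by edgeR.

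All 26 feedback and effector early response genes were tested, of which edgeR called 1 higher and 0 lower (16 and 0 at an unadjusted p under 0.05) and DESeq2 10 higher and 0 lower; the log2 fold change was positive in all 26, as in 51.6% of all genes, with a median of 0.52. The called gene was Ccn1, which encodes a matricellular protein and is a target of SRF and YAP (113.9, 106.3 and 104.5 CPM in Flnc gKO libraries, against 76.2, 86.6 and 75.03 CPM in control libraries; log2 fold change 0.45, adjusted p = 0.0407 by edgeR). The adjusted p of Ccn1 was 0.0552 with transcript-length offsets, and 0.07997 to 0.216 when any 1 library other than Flnc gKO replicate 3 was left out. Dusp1, whose product is a phosphatase that switches off MAP kinases, had 22.1, 22.5 and 21.0 CPM in Flnc gKO libraries, against 15.9, 15.9 and 18.3 CPM in control libraries, with an adjusted p of 0.0711 by edgeR and 0.0351 by DESeq2. By edgeR the adjusted p of Dusp1 was 0.0425 without Flnc gKO replicate 3 and 0.0762 to 0.267 without any other library. Among 15 corepressor and target genes of Egr and AP-1 proteins, edgeR called 2 higher and 0 lower (9 and 2 at an unadjusted p under 0.05) and DESeq2 6 higher and 0 lower, with a median of 0.68. They were Nab2 and Pdgfb, the gene of a platelet-derived growth factor chain, which is made by endothelial cells and megakaryocytes (log2 fold change 2.60, standard error 0.25, adjusted p = 0.0310 by edgeR). Nab2, itself a target of Egr proteins that feeds back on them, was at 28.3, 36.2 and 25.9 CPM in Flnc gKO libraries, against 16.2, 15.9 and 15.0 CPM in control libraries (log2 fold change 0.94, standard error 0.13, adjusted p = 0.0334 by edgeR). Leaving out Flnc gKO replicate 1, control replicate 1 or control replicate 2 ended both calls, and leaving out control replicate 3 ended that of Nab2, with adjusted p of 0.0519 to 0.197 for Pdgfb and 0.0608 to 0.197 for Nab2. The groups of Nab2 were far apart, but the 3′ ends of Nab2 and Stat6 overlap on opposite strands, so that reads there depend on the strand setting of the quantification, which is not given in the sources used here.

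Factors and kinases that act upstream of immediate early genes formed a list of 21, whose median log2 fold change was 0.050. All were tested, and edgeR called 0 higher and 0 lower (4 and 1 at an unadjusted p under 0.05) and DESeq2 1 higher and 1 lower. Srf was at 133, 117 and 119 CPM in Flnc gKO libraries, against 125, 116 and 116 CPM in control libraries, with a log2 fold change of 0.05 that was slightly negative with transcript-length offsets and without Flnc gKO replicate 1. Of 10 heat shock genes, edgeR called 0 higher and 0 lower (1 and 4 at an unadjusted p under 0.05) and DESeq2 1 higher and 2 lower, with a median of -0.087. This list was mixed, with 5 positive and 5 negative log2 fold changes that ran from -0.31 to 1.73.

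**Figure D4:**
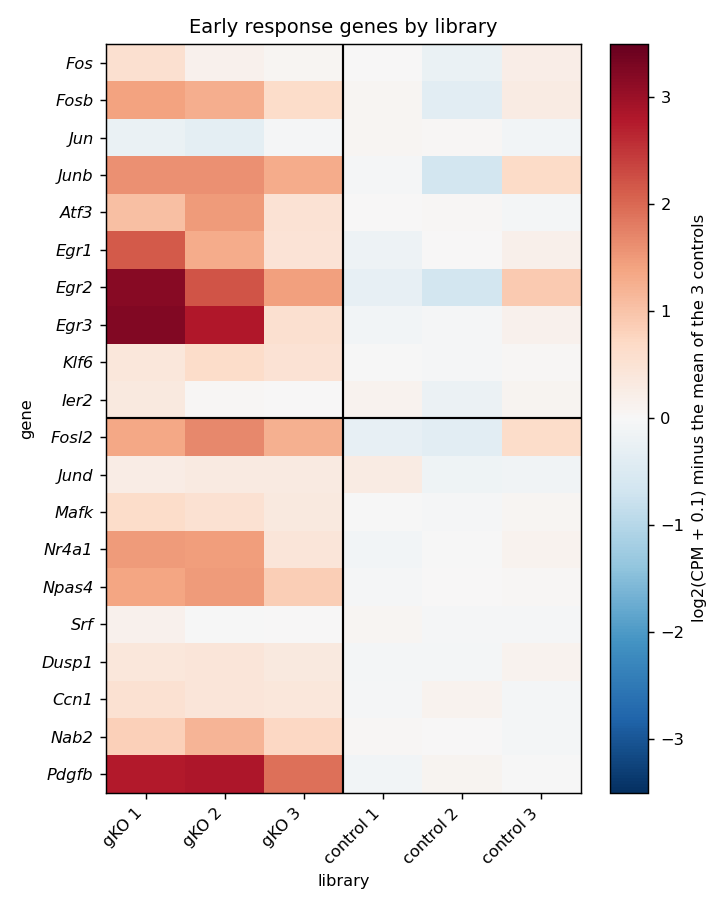
Log2(CPM + 0.1) of the 10 immediate early genes (above the line) and of the other early response genes named in the text (below it), minus the mean of the 3 controls, by library, with Flnc gKO libraries left of control libraries. Red is above and blue below the control mean: Egr2 and Egr3 reach 3.19 and 3.24 in Flnc gKO replicate 1, Egr3 is at 0.57 in Flnc gKO replicate 3, and Jun, Ier2 and Srf stay near 0.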

How the data were processed

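Per the labels and the study's methods, polyadenylated RNA was made into stranded libraries, and the authors quantified the reads with salmon (version not given in the sources used here) against GENCODE mouse transcripts on GRCm38.p6. The deposited values are estimated counts, TPM and effective lengths for 140658 transcripts per library; they hold no comparison of groups. Transcripts were joined to genes through GENCODE M21, also on GRCm38; 0.37% of transcripts, with 0.108% to 0.131% of the counts, had no gene there and were left out. For each gene the deposited estimated counts of its transcripts were added up and rounded to whole numbers, and the deposited TPM were added up for levels between genes.

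Genes were tested in R 4.3.3 with edgeR 4.0.16 (robust quasi-likelihood test, TMM, filterByExpr with a minimum of 10 counts) on all 6 libraries, with Benjamini-Hochberg adjustment over 16048 genes and a threshold of 0.05. Standard errors are the fold change over the square root of F. DESeq2 1.42.0 on the same counts was an alternative; the authors used DESeq2 1.22.2. On simulated data for this comparison (200 of 16048 genes changed), edgeR made 16 false calls and found 24% of the genes changed by 0.5 (log2), 62% of those by 1, 84% of those by 2 and 92% of those by 3; DESeq2 made 45 false calls and found 36%, 68%, 90% and 92%. The simulated counts were drawn independently for each gene and library, without deviations shared between genes. Real libraries can have such deviations, so the percentages found may be higher than in these data. Other alternatives were RLE or total-count scaling, 2 other filters, transcript-length offsets, a replicate block, a Y-linked covariate and leaving out each library. All pairs of replicates differed beyond sampling noise.

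The series text speaks of pairs of hearts but does not say what equal replicate numbers mark. Deviations from the group means of same-numbered libraries correlated at 0.106, 0.716 and 0.665 (replicates 1, 2 and 3) over 11273 genes. For replicate 1 this is marginal, since Flnc gKO replicate 2 correlated with control replicate 1 at 0.183. Deviations of 3 libraries from their own mean depend on each other, so these values do not settle whether the numbers mark pairs. The main test has no block, because a shared litter is not stated, and blocked values are given where they change a call. 

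The 10 genes and all lists were chosen with earlier results of these data known. Named besides the 10 are the called genes of each list, Jund, Fosl2, Srf, Dusp1, Nr4a1 and Nab2 whatever their values, the other members of the Fos, Jun and Egr families where shares are given, and the 5 genes most like the mean of the 10.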

Additional observations from a re-analysis of the deposited data

How the results depend on the processing

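In 199 refits of the 10 genes, 0 changed direction. These refits reuse the same libraries, and where groups did not overlap, as in 7 of the 10, leaving out a library could hardly reverse a sign. The count called higher, 1 in the main test, was 2 with a replicate block, 0 with the Y-linked covariate, under which 0 of 16048 genes were called, and 6 with DESeq2. Leaving out 1 library gave 0 to 6 by edgeR and 4 to 7 by DESeq2, an alternative chosen after seeing the data. Over all genes these fits called 1 to 993 higher by edgeR and 520 to 1291 by DESeq2, against 170 and 987 from all libraries. With 1 library left out, DESeq2 called Klf6, Junb and Atf3 higher in 6 of 6 fits and Egr3 in 5 of 6. It called Egr1 in 2 of 6, Egr2 in 2 of the 5 with an adjusted p, and Fosb in 1 of 6. Where edgeR called 0 of the 10 higher with a library left out, it called 1 to 37 of all genes higher. The count of the 10 called lower was 0, or 1 (Jun) by DESeq2 without Flnc gKO replicate 3. Only 1 Flnc gKO library has Y-linked RNA at a level near the controls, so sex and genotype cannot be told apart well here. Of 99 other genes on the wider lists, which include the upstream factors and heat shock genes, 5 were called higher in the main test, 3 with length offsets, 11 with the replicate block, 0 with the Y-linked covariate, 29 with DESeq2 and 0 to 22 when 1 library was left out (22 without Flnc gKO replicate 3). The count called lower was 0, 1 without a filter, 4 with DESeq2 and 0 to 2 when 1 library was left out. The replicate block changed no other call of the 10 genes than that of Atf3. Among the named genes refitted, which leave out Fosl1, Socs3, Errfi1 and the 5 most like the mean of the 10, Srf was the only one to change sign, at -0.0056 with length offsets and -0.017 to 0.084 when 1 library was left out. Family shares from counts per kilobase were the same by construction. Searching 1 strand only left the half-site in 4 of the 7 windows. Low counts limit what can be said of Egr2 and of the splice forms of Fosb and Egr3. The cause of the differences between settings was not tested.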

Other observations

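Some early response genes were highest in replicate 3 of both groups; they were chosen after their values were seen. Fosl1, a Fos family gene, had 3.31, 0.177 and 9.44 CPM in the Flnc gKO libraries numbered 1, 2 and 3, against 0.457, 0.0965 and 11.0 CPM in the control libraries with these numbers. Socs3, which encodes a feedback inhibitor of cytokine signalling, had 3.89, 3.31 and 15.9 CPM in Flnc gKO libraries, against 2.70, 2.99 and 13.4 CPM in control libraries. Errfi1, which encodes a feedback inhibitor of the EGF receptor, had 47.5, 50.1 and 78.7 CPM in Flnc gKO libraries, against 24.1, 19.4 and 67.1 CPM in control libraries. Socs3 and Errfi1 were also higher in each Flnc gKO library than in the control library of the same number. Replicate 3 was likewise the highest of its group for the summed erythroid markers and for the 8 surface ectoderm markers, which summed to 442, 590 and 703 CPM in Flnc gKO libraries, against 238, 179 and 391 CPM in control libraries. The part of such cells in the levels of these genes was not tested. Egr4, the remaining Egr family gene, was under the filter for low counts, with 7, 1 and 6 counts in Flnc gKO libraries, against 0, 1 and 0 counts in control libraries, and was not tested by edgeR.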
